A study of Mus musculus with 30 samples.

Results

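Embryoid bodies of an Aebp2 gene trap line were compared with those of C129 wild type after 4 days of differentiation, across all genes. The 4 libraries, 2 of each line, were chosen by line and day from 30 libraries of 5 lines at 3 time points. The mutant genotype is Aebp2gt/gt, a gene trap on both alleles, and C129 is labelled wild type. Both lines were mouse embryonic stem cells that had been kept on gelatin with serum and LIF and were then moved to non-adherent dishes in the same medium without LIF, so that withdrawal of LIF and growth as aggregates are shared by all 4 libraries. The pairing of the trap with C129 was read from the order in which the series design names the lines, and it is not stated there. The labels call the 2 libraries of each line biological duplicates. They name no trap vector, clone or parent line, so the trap and any other difference between the lines cannot be told apart, and p-values measure only the spread between cultures. Values of Pali wild type, a second wild type line of the series, are given at day 4 beside the main results as a description, with no test against it.

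AEBP2 is an accessory subunit of Polycomb repressive complex 2 (PRC2), the enzyme that methylates lysine 27 of histone H3 at silent developmental genes. Its core holds EZH1 or EZH2, EED, SUZ12 and RBBP4 or RBBP7. AEBP2 and JARID2 mark one form of the complex, and the Polycomb-like proteins PHF1, MTF2 and PHF19, with EPOP or PALI1, mark the other. When stem cells are aggregated without LIF they leave the naive state, pass through a state like the epiblast of the implanting embryo, and then turn on genes of the germ layers. The comparison describes how the trap line differs from C129 during that passage.

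The 4 libraries had column totals of 16596221 to 17501376 normalised counts, an estimated 13198293 to 14211372 reads, and between 12490 and 12852 genes with a value of at least 10. Duplicates correlated at 0.951 in the trap and 0.950 in C129 (Pearson, log2 scale, across genes, which are not independent replicates), and libraries of different lines at 0.935 to 0.944. The duplicates stood over 8-fold apart in 2.13% of the trap genes and 2.11% of the C129 genes with a level of 100. The labelled material was checked against its markers. Pou5f1, a stem cell factor, was at 14608 and 18194 in the gene trap and 21141 and 17101 in C129, and Fgf5, an epiblast marker that is low in undifferentiated cells, was at 2011 and 2016 in the gene trap and 1739 and 1635 in C129 against 15.5 and 4.75 in the trap and 18.2 and 16.6 in C129 at day 0. The streak gene T was at 2.54 and 6.09 in the gene trap and 4.93 and 57.8 in C129. Sox17, an endoderm factor, was at 0 and 4.86 in the gene trap and 8.52 and 39.6 in C129. Gata6, another, was at 8.89 and 0 in the gene trap and 0 and 30.2 in C129. T, Sox17 and Gata6 were thus at or near 0 in part of the libraries. The streak gene Eomes was not, at 202 and 76.7 in the gene trap and 304 and 381 in C129. Foxa2, of endoderm, was at 5.11 and 3.68 in the gene trap and 18.6 and 151 in C129. The neural progenitor gene Nes was at 3798 and 3787 in the gene trap and 1900.2 and 3171 in C129. Summed markers of fibroblasts and mesenchyme ran from 14639 to 15889 in the trap and from 14481 to 19819 in C129, with 4 and 3 of 27 genes at 0 in both libraries. Those of trophoblast ran from 16441 to 18052 and from 14695 to 14779, with 9 and 6 of 30 genes at 0.

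At day 4, 637 of 15712 tested genes were higher in the gene trap (4.05%) and 779 were lower (4.96%), 1416 or 9.01% in all, by limma's moderated test with a Benjamini-Hochberg adjusted p under 0.05. Of these, 622 differed by 2-fold or more on the log2(value + 4) scale, which understates the change of low genes. With upper-quartile rescaling 447 genes were higher and 840 lower, so the share of called genes that were higher went from 45.0 to 34.7%. The test pools the spread over all 15 groups of the series. With only the 12 libraries of these lines 395 genes passed, and with only the 4 day 4 libraries, which leave 2 residual degrees of freedom, 0 passed, with 2535 at an unadjusted p under 0.05 and a smallest adjusted p of 0.158. The count also leaned on single libraries. It was 402 without C129 replicate 1 and 617 without trap replicate 1, but 1055 and 1174 without trap replicate 2 and C129 replicate 2, and 247 of the 1416 genes (17.4%) passed in the same direction in all 4 of these fits. The trap and C129 values did not overlap for 7573 tested genes, 48.2%. Groups that do not overlap were therefore common, and are given below only as a description.

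**Figure D1:**
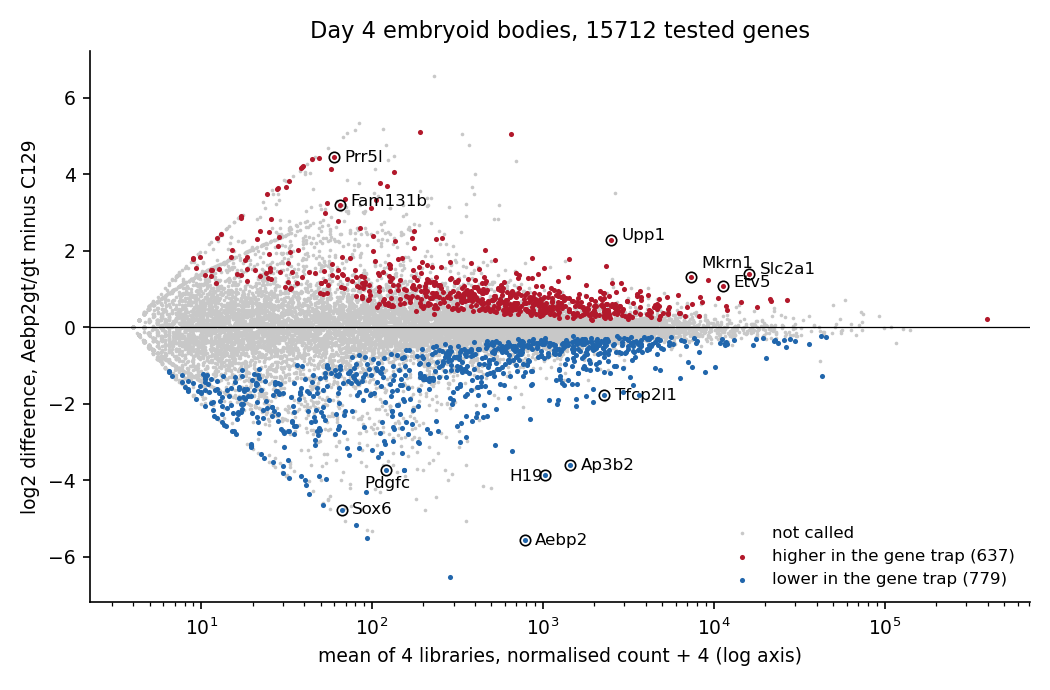
Difference between the Aebp2 gene trap and C129 wild type at day 4 (vertical axis, log2) against the mean normalised count of the 4 libraries plus 4 (horizontal, log axis), 1 point per tested gene. Red points are the 637 genes called higher and blue points the 779 called lower, with 12 genes of the text ringed, and Aebp2 is the ringed gene with the lowest difference.

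The trapped gene was checked first. Aebp2 (chromosome 6, 140622663 to 140678472, plus strand, GRCm38) was at 17.1 and 44.9 in the gene trap and 1312 and 1748 in C129, with 2258 and 2255 in Pali wild type. Both trap libraries lay below both C129 libraries, and the log2 difference was -5.56 (SE 0.33, adjusted p = 6.2e-08). Over the whole series it ran from 17.1 to 66.4 in the 6 trap libraries and from 1232 to 2784 in the other 24. Of the 10 other tested genes that start within 2 Mb of it, limma called 0 at day 4, and 1 had an unadjusted p under 0.05. Their median difference was 0.03.

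No other tested gene of PRC2 passed limma's test at day 4. Of 6 core genes, 1 was higher and 2 were lower at an unadjusted p under 0.05. Among the accessory subunits, Jarid2, the partner of AEBP2 in its form of the complex, was at 4425 and 4770 in the gene trap and 5746 and 5799 in C129, a difference of -0.33 (SE 0.17, adjusted p = 0.27). The Polycomb-like gene Mtf2 was at 1413 and 1304 in the gene trap and 1143 and 1226 in C129. Neither pair of values overlapped between the lines, and neither difference passed. Of the core, Suz12, the scaffold, was at 7962 and 5765 in the gene trap and 6617 and 6331 in C129, and Eed, which reads the methyl mark, was at 1642 and 1479 in the gene trap and 2117 and 1794 in C129 with a difference of -0.32 (SE 0.14, adjusted p = 0.17). Ezh2, the main catalytic subunit, was listed at 0 in all 4 libraries, a value that can be a failed estimate, so nothing can be read from it. Ezh1, the other catalytic subunit, was at 458 and 867 in the gene trap and 0 and 132 in C129. Its difference of 4.77 (SE 2.25, adjusted p = 0.22) did not pass, and its C129 duplicates were far apart. Of the 6 core subunits and 8 accessory subunits tested, 1 was called, and it was Aebp2 itself. Limma called 0 of the 14 tested subunits of canonical PRC1, the second Polycomb complex, with 2 at an unadjusted p under 0.05 (median difference 0.19, against 0.00 over all tested genes).

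The naive pluripotency programme was lower in the trap at day 4 in part. Of 32 tested genes of core and naive pluripotency, 8 were lower (25.0%, against 4.96% of all tested genes) and 2 higher (6.25%, against 4.05%). Their median difference was -0.37. Tfcp2l1 (chromosome 1, 118627945 to 118685168, plus strand), a transcription factor of the naive state, was at 918 and 1155 in the gene trap and 3867 and 3203 in C129, with 5148 and 3264 in Pali wild type. Both trap libraries lay below all 4 wild type libraries, and the difference from C129 was -1.77 (SE 0.25, adjusted p = 0.00048). Klf2, a Krüppel-like factor that sustains self-renewal, was at 835 and 821 in the gene trap and 2682 and 2009 in C129, a difference of -1.48 (SE 0.20, adjusted p = 0.00031). Its values in Pali wild type, 1277 and 1072, lay between the lines and nearer to the trap. Tcl1, a co-activator of AKT signalling that is abundant in naive cells, was at 104 and 218 in the gene trap and 822 and 727 in C129 and in Pali wild type at 399 and 297. Prdm14, a repressor of epiblast genes, was at 114 and 90.1 in the gene trap and 378 and 264 in C129, and its difference was -1.60 (SE 0.33, adjusted p = 0.0064). In each of these 4 genes the trap libraries were the low ones and the lines did not overlap.

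The naive genes that passed also included the nuclear receptor Nr5a2, the Krüppel-like factor Klf5 and the homeobox gene Gbx2. Nr5a2 was at 227 and 206 in the gene trap and 554 and 383 in C129 and Klf5 at 286 and 389 in the gene trap and 601 and 541 in C129. Gbx2 was close to the detection limit in the trap, at 1.27 and 12.2, and at 53 and 30.2 in C129. In the opposite direction, Dppa5a, an RNA-binding protein of stem cells, was higher, at 11464 and 9541 in the gene trap and 7536 and 5747 in C129, a difference of 0.67 (SE 0.15, adjusted p = 0.011). Stat3, the transcription factor that LIF activates, was higher at 1077 and 1051 in the gene trap and 573 and 707 in C129, a difference of 0.74 (SE 0.13, adjusted p = 0.0017). Without C129 replicate 1, 3 of the 8 falls still passed, and without trap replicate 1, 5 did. The fall of Prdm14 was lost without C129 replicate 1. Tfcp2l1, Klf2, Tcl1 and the rise of Stat3 passed in all 4 fits that left out a library, whereas the rise of Dppa5a was lost without trap replicate 1 and without C129 replicate 2.

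The central factors of pluripotency did not pass. Pou5f1 differed by -0.22 (SE 0.25, adjusted p = 0.67) and its values overlapped between the lines. Nanog was at 5472 and 4646 in the gene trap and 6662 and 6976 in C129, Sox2 at 7217 and 6452 in the gene trap and 8654 and 7131 in C129, Esrrb at 3002 and 2873 in the gene trap and 5257 and 3788 in C129, and Zfp42 (Rex1) at 1593 and 1691 in the gene trap and 3835 and 2459.6 in C129. The trap values of Nanog, Esrrb and Zfp42 all lay below those of C129, but the adjusted p was 0.13, 0.12 and 0.078.

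Genes of the primed epiblast had 2 calls. Of 17 tested, 2 were higher (11.8%, against 4.05% of all tested genes) and 0 lower, and the median difference was 0.50. Dnmt3a, a de novo DNA methyltransferase, was at 8787 and 9219 in the gene trap and 6171 and 5543 in C129, a difference of 0.62 (SE 0.16, adjusted p = 0.021). Zic5, a zinc finger factor of the epiblast and neural plate, was at 1466 and 1648 in the gene trap and 757 and 1034 in C129. Neither call survived the loss of C129 replicate 1 or of either trap library. Otx2, the homeobox factor that directs the exit from the naive state, was at 5383 and 4966 in the gene trap and 3164 and 2867 in C129 and missed the threshold (adjusted p = 0.051). Dnmt3b, the methyltransferase most abundant in the epiblast, was at 55145 and 63921 in the gene trap and 35045 and 44276 in C129, with an adjusted p of 0.37. In all of these genes both trap libraries were above both C129 libraries. In Pali wild type Dnmt3a was at 2985 and 3177 and Dnmt3b at 31149 and 27461, below both lines. Across the list of 17, the median difference from Pali wild type was 0.31 in the trap and 0.0012 in C129. In bulk RNA, fewer cells of a type and less RNA per cell cannot be told apart.

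**Figure D2:**
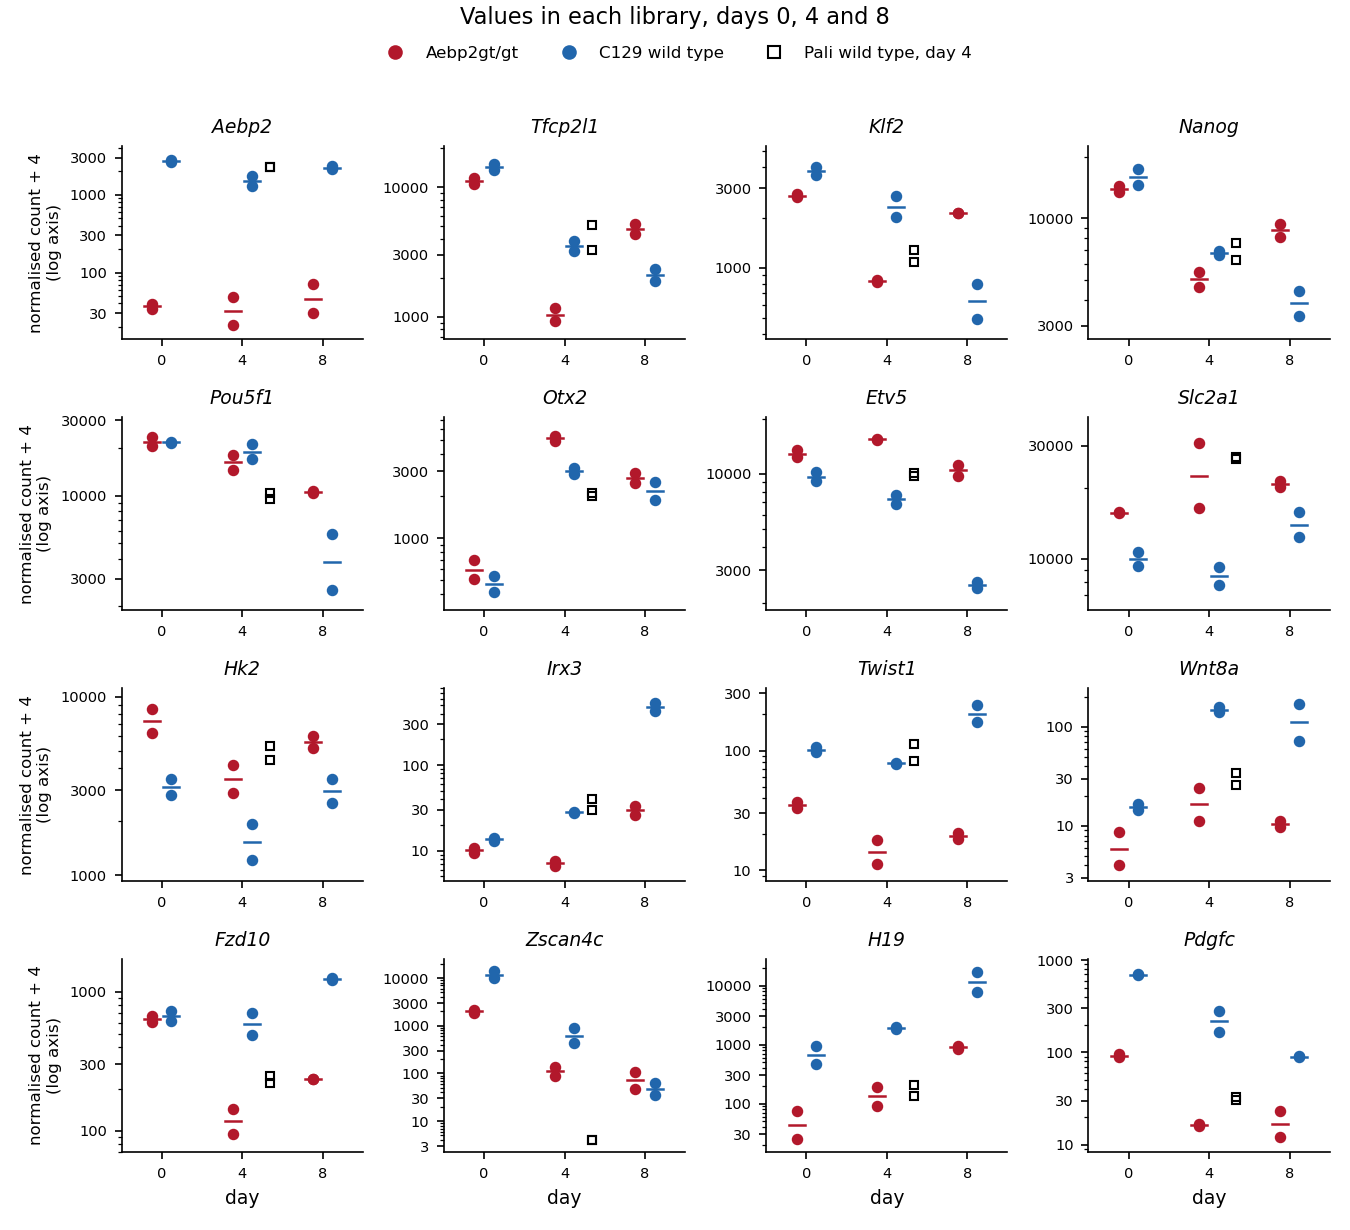
Normalised count plus 4 (log axis) of 16 genes in each library of the Aebp2 gene trap (red) and C129 wild type (blue) at days 0, 4 and 8, with short lines at the mean on the log scale, and of Pali wild type at day 4 (open squares). Aebp2 is low in all 6 trap libraries, and Tfcp2l1 is lower in the trap than in C129 at day 4 but higher at day 8.

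Large falls beside Aebp2 were seen in genes of transcription, signalling and vesicle traffic. Chd3, a chromatin remodeller, was at 0 and 4.87 in the gene trap and 436 and 690.3 in C129, but its values in Pali wild type, 629 and 20.9, were themselves far apart, and its call was lost without trap replicate 1. Sox6, an SRY-box factor of neural and muscle differentiation, was at 0 and 1.24 in the gene trap and 155 and 94.5 in C129, a difference of -4.77 (SE 0.73, adjusted p = 0.00068). Pdgfc, a ligand of the PDGF alpha receptor, was at 12.7 and 12.2 in the gene trap and 279.6 and 163 in C129, a difference of -3.73 (SE 0.29, adjusted p = 2.2e-06). Ap3b2, a neuronal subunit of the AP-3 vesicle adaptor, was at 255 and 174 in the gene trap and 3155 and 2170.4 in C129, a difference of -3.61 (SE 0.32, adjusted p = 6.2e-06), with 1021 and 658 in Pali wild type. Both trap libraries were low in each of these genes and there was no overlap. Glis3, a zinc finger factor, was at 16.2 and 13.2 in the gene trap and 215 and 172 in C129. Plce1, a phospholipase C, was at 22.8 and 28 in the gene trap and 272 and 189.9 in C129, and Cadps2, a regulator of vesicle release, was at 23.4 and 22.1 in the gene trap and 194 and 216 in C129. The 6 genes from Sox6 to Cadps2 passed in each of the 4 fits that left out a day 4 library. The lipoxygenase gene Alox15, at 7.62 and 32.9 in the gene trap and 167 and 230.1 in C129, did not pass without trap replicate 1. In Pali wild type, Pdgfc was at 29 and 26.3 and Plce1 at 24.5 and 41.7, near the trap values and below C129.

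Large rises were seen in genes of several kinds. Prr5l, a component of the TOR complex 2, was at 137 and 83.6 in the gene trap and 0 and 2.53 in C129, a difference of 4.44 (SE 0.51, adjusted p = 9.2e-05). Galnt16, a glycosyltransferase, was at 171 and 112 in the gene trap and 16 and 23.9 in C129. Map7d2, a microtubule-binding protein, was at 359.5 and 227 in the gene trap and 34.2 and 63.5 in C129. Upp1, which degrades uridine, was at 6007 and 2460.3 in the gene trap and 829 and 733 in C129, a difference of 2.30 (SE 0.32, adjusted p = 0.00037), and trap replicate 1 was well above replicate 2. Adarb1, an RNA-editing enzyme, was at 510 and 327 in the gene trap and 136 and 44.2 in C129, and its call was lost without trap replicate 1 and without C129 replicate 2. In Pali wild type Prr5l was at 43.3 and 80.8, Galnt16 at 109.7 and 95.5 and Map7d2 at 169 and 239.6, all above C129, and Upp1 was at 978 and 1116, near C129.

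Developmental regulators that PRC2 classically silences had few calls at day 4. Of 81 tested, 6 were lower in the trap (7.41%, against 4.96% of all tested genes) and 0 were higher (against 4.05%). The share of falls was thus near that of all genes. The median difference was -0.51, with 17 of 81 above 0. Irx3, an Iroquois homeobox gene of the neural tube, was at 2.54 and 3.66 in the gene trap and 24.6 and 23.9 in C129, with an adjusted p of 0.0028, and its neighbour Irx5 was at 1.27 and 2.44 in the gene trap and 18.5 and 12.6 in C129. Twist1, a regulator of mesenchyme, was at 14 and 7.31 in the gene trap and 73.9 and 74.2 in C129, a difference of -2.45 (SE 0.42, adjusted p = 0.0017). In Pali wild type Irx3 was at 26.3 and 36.2, Irx5 at 19.9 and 27.4 and Twist1 at 77.9 and 109.8. For these 3 genes the trap libraries were low and did not overlap either wild type. Foxa2, a factor of endoderm and notochord, was at 5.11 and 3.68 in the gene trap and 18.6 and 151 in C129, but its C129 values were far apart. Neurog3, a factor of endocrine progenitors, was at 1.27 and 0 in the gene trap and 20.9 and 8.8 in C129, near the detection limit. Irx3 and Twist1 passed without any 1 of the 4 libraries. Irx5 was lost without trap replicate 1 or C129 replicate 1, and of all 6, between 3 and 5 passed in those fits. Irx3, Irx5 and Neurog3 were low in all 4 libraries, so these falls are small in counts.

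Genes of the primitive streak and mesoderm had a median difference of -0.80. Of 34 tested, 5 were lower (14.7%, against 4.96% of all tested genes) and 0 higher. Wnt8a, a streak ligand, was at 20.3 and 7.31 in the gene trap and 137 and 153 in C129, a difference of -3.17 (SE 0.52, adjusted p = 0.0011). Fgf8, a growth factor of the streak, was at 4.91 and 30 in the gene trap and 123 and 101 in C129, and Nodal, the ligand that patterns the streak, was at 996 and 1285 in the gene trap and 2701 and 1947 in C129. Wnt3, the ligand that starts the streak in the embryo, was at 7.62 and 11 in the gene trap and 30.8 and 45.3 in C129, and Rspo3, which sensitises cells to Wnt, was at 7.62 and 3.65 in the gene trap and 35.7 and 76.7 in C129. In Pali wild type Wnt8a was at 29.9 and 22, Fgf8 at 4.78 and 4.24 and Nodal at 814 and 1205, so C129 was the high line in these 3. Without C129 replicate 1, 3 genes of the list were lower, and without trap replicate 1, 2 were, and in both fits Wnt8a was the 1 of these 5 that passed. The streak factors Eomes and T did not pass: Eomes was at 202 and 76.7 in the gene trap and 304 and 381 in C129 with an adjusted p of 0.073.

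Of 51 tested genes of the Wnt pathway, 8 were lower in the trap (15.7%, against 4.96% of all tested genes) and 2 higher (3.92%, against 4.05%). Their median was -0.10. Beside Wnt8a, Wnt3 and Rspo3, the ligand Wnt7b was lower at 3.81 and 8.54 in the gene trap and 75.2 and 83.1 in C129. The receptor Fzd10 was at 91.4 and 139 in the gene trap and 693 and 487 in C129, a difference of -2.33 (SE 0.27, adjusted p = 9.2e-05), and the receptor Fzd8 was at 278 and 326 in the gene trap and 470.4 and 509 in C129. The secreted inhibitor Dkk1 was at 7.62 and 7.31 in the gene trap and 29.6 and 79.2 in C129, and the inhibitor Sfrp1 was at 753 and 834 in the gene trap and 1778 and 1616 in C129. Ligands, receptors and inhibitors were thus all among the genes that fell. Tcf7 and Tcf7l1, DNA-binding partners of beta-catenin, were higher, at 2736 and 2023 in the gene trap and 1511 and 1708 in C129 for Tcf7 and at 429 and 458 in the gene trap and 225 and 245 in C129 for Tcf7l1. Tcf7l1 was lost without any 1 of the 4 libraries, and Tcf7 without trap replicate 1 or either C129 library, with upper-quartile rescaling and with a replicate block (adjusted p = 0.059). Wnt8a and Fzd10 passed in all 4 fits that left out a library, and the count of falls in the list was 2 without trap replicate 1 and 3 without C129 replicate 1.

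Other signalling pathways held a few calls. Of 23 genes of the Nodal and Activin pathway 0 were higher and 3 were lower, against 4.05% and 4.96% of all tested genes. They were Nodal itself, its co-receptor Cfc1, at 7.62 and 4.87 in the gene trap and 61.6 and 52.8 in C129, and the Activin antagonist Fst, at 24 and 95.8 in the gene trap and 274 and 466 in C129. Fst differed by -2.77 (SE 0.49, adjusted p = 0.0021). In Pali wild type Fst was at 83.4 and 123 and Cfc1 at 44.4 and 22, all below C129. Id4, a target of BMP signals that blocks basic helix-loop-helix factors, was at 39.3 and 34.1 in the gene trap and 334 and 229 in C129, a difference of -2.79 (SE 0.33, adjusted p = 0.00012), with 59.8 and 109 in Pali wild type. Of 25 FGF and ERK feedback genes 1 was higher and 3 were lower, with a median of -0.49. Over all tested genes 4.05% were higher and 4.96% lower. The falls were Fgf8, the ligand Fgf10, at 8.89 and 8.53 in the gene trap and 22.2 and 30.2 in C129, and Dusp4, a phosphatase that limits ERK, at 1885 and 2529 in the gene trap and 3564 and 3404 in C129. Fgf10 was lost without any 1 of the 4 libraries, and Dusp4 without trap replicate 1 or C129 replicate 1. Etv5, an ETS factor downstream of FGF and ERK, was higher, at 15309 and 15516 in the gene trap and 7722 and 6898 in C129, a difference of 1.08 (SE 0.09, adjusted p = 2.2e-06). Its trap duplicates were close together, and its values in Pali wild type, 9794 and 10088, lay between the lines. Cfc1, Fst, Id4 and Etv5 passed in every fit that left out 1 library.

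Genes of the 2-cell-like state, a rare state of stem cell cultures that resembles the embryo after its first cleavage, were lower in the trap. Of 22 tested, 9 were lower (40.9%, against 4.96% of all tested genes) and 0 higher, and the median difference was -1.43, with 2 of 22 above 0. Summed over the 23 genes in the table, the signal was 1287 and 1867 in the trap and 5733 and 3157 in C129. Zscan4c, a marker of the state, was at 86.3 and 135 in the gene trap and 881 and 421 in C129, a difference of -2.45 (SE 0.54, adjusted p = 0.009). Zscan4a was at 22.8 and 49.9 in the gene trap and 461 and 199.9 in C129, Zscan4f at 62.2 and 118 in the gene trap and 814 and 311 in C129, and Pramef25 at 3.81 and 3.65 in the gene trap and 57.9 and 40.2 in C129. C129 replicate 1 held the highest value in each. The Zscan4 genes are close copies of each other, and the assignment of reads within such a family is uncertain, so they are not separate observations. All 9 calls were lost without C129 replicate 1, and 3 genes passed without trap replicate 1. Pali wild type listed Zscan4a, Zscan4c and Zscan4f at 0 in both day 4 libraries, so the trap lay between both wild types. At day 0 the same sum was 12532 and 10246 in the trap and 61260 and 45739 in C129.

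Of 52 imprinted genes tested, 4 were lower (7.69%) and 2 higher (3.85%), with a median of -0.05. These shares are near the 4.96% and 4.05% of all tested genes, so the genes named here are single loci. H19 (chromosome 7, 142575529 to 142578143, minus strand), a maternally expressed noncoding RNA, was at 190.3 and 86.6 in the gene trap and 1969 and 1862 in C129, a difference of -3.85 (SE 0.50, adjusted p = 0.00024). Cdkn1c, a maternally expressed inhibitor of the cell cycle, was listed at 0 in both trap libraries and at 212 and 92.1 in C129. Pali wild type was at 130.5 and 199 for H19 and at 1.8 and 1.1 for Cdkn1c, so for both genes C129 was the line that stood apart. Sfmbt2, a paternally expressed Polycomb-related gene, was at 0 and 15.2 in the gene trap and 156 and 181 in C129, and Pali wild type, at 289 and 188, was like C129. Kcnq1ot1, the noncoding RNA of the Cdkn1c domain, was at 16444 and 13122 in the gene trap and 26749.5 and 24317 in C129. Igf2, the paternally expressed neighbour of H19, was at 84.8 and 64.6 in the gene trap and 118 and 108 in C129 and did not pass (adjusted p = 0.38). Higher in the trap were Nap1l5, at 40.6 and 42.6 in the gene trap and 3.69 and 10.1 in C129, and Zrsr1, at 580.1 and 570.1 in the gene trap and 368 and 365 in C129. H19 and Sfmbt2 passed without any 1 of the 4 libraries. Cdkn1c was lost without trap replicate 1 or C129 replicate 1, and Kcnq1ot1 was lost without any 1 of the 4. Of the rises, Zrsr1 was lost without trap replicate 1 or either C129 library, and Nap1l5 without C129 replicate 1.

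Genes of glycolysis and of the response to low oxygen were higher in the trap. Of 34 tested, limma called 12 higher (35.3%, against 4.05% of all tested genes) and 0 lower, with 24 higher and 0 lower at an unadjusted p under 0.05. Of the 34 differences, 31 were above 0, and the median was 0.62. With upper-quartile rescaling 10 passed. The 12 genes cover glucose uptake by Slc2a1, entry into glycolysis by Hk1 and Hk2, the enzymes Gpi1, Aldoa, Tpi1, Pgam1 and Eno2, the lactate dehydrogenase Ldha, the oxygen sensor Egln1, the vessel growth factor Vegfa and the carbonic anhydrase Car9. The promoters of the 3 with the lowest adjusted p are printed first, since hypoxia-inducible factors bind a response element whose core letters are ACGTG or GCGTG. Each runs from 250 bases before to 50 bases after the RefSeq start on the gene's strand (RefSeq, GRCm38.p6), and capitals mark the core on either strand.
Hk2, chr6:82774405-82774704, minus strand: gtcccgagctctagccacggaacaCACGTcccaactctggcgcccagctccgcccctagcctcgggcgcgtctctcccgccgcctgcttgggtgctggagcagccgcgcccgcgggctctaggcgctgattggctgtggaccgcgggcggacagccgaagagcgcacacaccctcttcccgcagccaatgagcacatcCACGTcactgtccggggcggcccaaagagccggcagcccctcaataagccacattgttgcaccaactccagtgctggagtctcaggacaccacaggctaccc
Gpi1, chr7:34230287-34230586, minus strand: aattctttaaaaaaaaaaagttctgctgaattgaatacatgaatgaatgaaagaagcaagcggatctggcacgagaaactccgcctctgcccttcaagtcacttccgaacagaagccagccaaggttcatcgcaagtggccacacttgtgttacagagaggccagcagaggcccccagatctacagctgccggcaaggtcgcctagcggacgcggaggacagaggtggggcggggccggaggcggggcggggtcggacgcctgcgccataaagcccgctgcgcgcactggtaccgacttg
Slc2a1, chr4:119108495-119108794, plus strand: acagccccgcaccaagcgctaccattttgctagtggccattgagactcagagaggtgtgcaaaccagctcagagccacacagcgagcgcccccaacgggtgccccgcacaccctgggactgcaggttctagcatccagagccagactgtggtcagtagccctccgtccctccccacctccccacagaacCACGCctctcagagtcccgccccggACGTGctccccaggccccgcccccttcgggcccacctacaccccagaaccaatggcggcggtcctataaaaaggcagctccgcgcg

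The Hk2 and Slc2a1 windows each hold 2 matches, and the letters are not in the Gpi1 window. All 12 genes had a promoter entry. Of their 17 promoters 11 held a match (64.7%), as did 24 of 27 promoters of the other tested genes of the list (88.9%) and 14380 of all 32851 promoters of this length (43.8%). A match is a description of the letters and not a site.

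Slc2a1, the main glucose transporter of early cells, was at 30953 and 16316 in the gene trap and 7767 and 9246 in C129, a difference of 1.41 (SE 0.25, adjusted p = 0.0024). Hk2, the inducible hexokinase, was at 4121 and 2894 in the gene trap and 1216 and 1929 in C129, a difference of 1.17 (SE 0.21, adjusted p = 0.0021). In Pali wild type Slc2a1 was at 26321 and 26839 and Hk2 at 5298 and 4411, so C129 was the low line for both. Gpi1, which converts glucose 6-phosphate, was at 16511 and 10467 in the gene trap and 8347 and 7205 in C129 and in Pali wild type at 10417 and 9135. Hk1, the constitutive hexokinase, was at 321 and 226 in the gene trap and 33.3 and 108 in C129, and Ldha, which makes lactate, was at 31518 and 22293 in the gene trap and 15363 and 16451 in C129. Aldoa was at 43507 and 23614 in the gene trap and 23539 and 16209 in C129, with little between trap replicate 2 and C129 replicate 1. Car9 was listed at 0 in both C129 libraries and at 22.8 and 13.4 in the trap.

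The 12 genes did not rise equally in both trap libraries, and trap replicate 1 was the higher in 11 of 12. Without trap replicate 2, 22 of 34 passed, and without trap replicate 1, 4 did. Without C129 replicate 1, 5 passed, and without C129 replicate 2, 7. Slc2a1 and Gpi1 passed in all 4 fits. Across the list, the median difference from Pali wild type was 0.33 in the trap and -0.18 in C129.

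**Figure D3:**
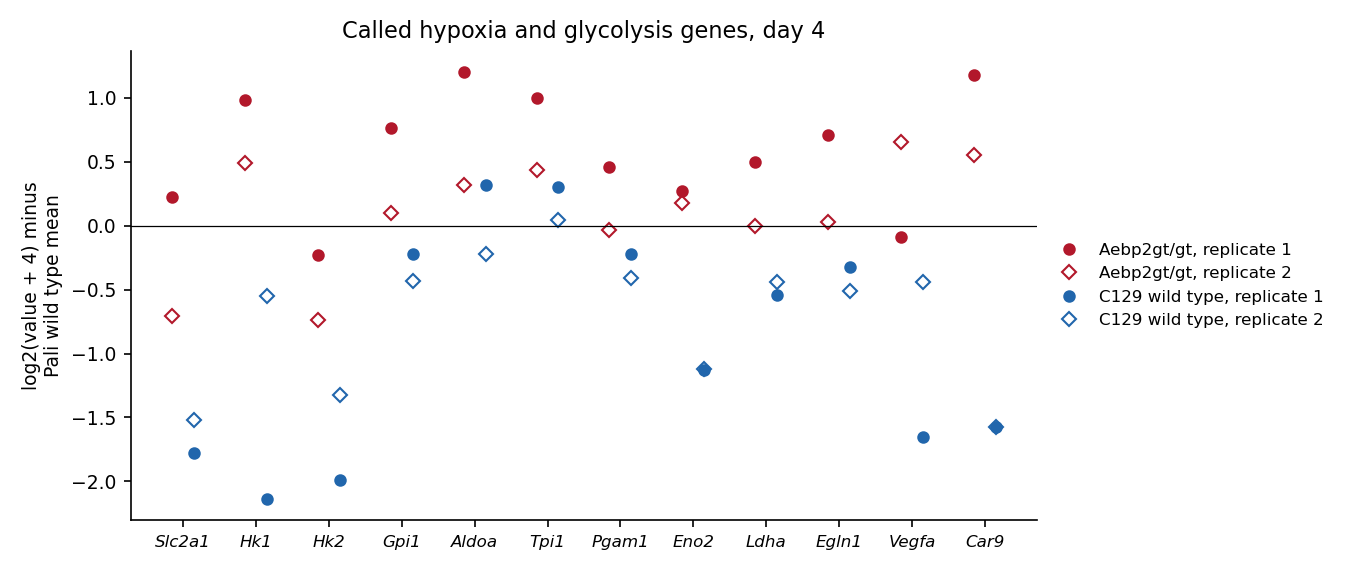
log2(value + 4) of the 12 called hypoxia and glycolysis genes in each day 4 library, minus the mean of the Pali wild type libraries (vertical axis). Trap libraries are red and C129 libraries blue, with filled circles for replicate 1 and open diamonds for replicate 2, and trap replicate 1 is above trap replicate 2 in 11 of 12 genes.

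Ribosomal protein genes showed small falls. Of 58 cytoplasmic ribosomal protein genes tested, 12 were lower (20.7%, against 4.96% of all tested genes) and 0 higher, with a median of -0.21 and 6 of 58 above 0. Rpl14, of the large subunit, was at 14329 and 14060.4 in the gene trap and 21472 and 17764 in C129, a difference of -0.46 (SE 0.10, adjusted p = 0.01). All 12 calls were lost without C129 replicate 1 or trap replicate 1, and the count was 3 without trap replicate 2, and 25 without C129 replicate 2, and it was 18 with upper-quartile rescaling.

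Markers of cell types outside the epiblast held some calls on short lists. Of 27 trophoblast genes 5 were lower (18.5%, against 4.96% of all tested genes) and 0 higher, with a median of 0.00. Tfap2c, an AP-2 factor of trophoblast and naive cells, was at 189 and 95.1 in the gene trap and 377 and 512 in C129. Gata2, a factor of trophoblast and blood, was at 10.2 and 0 in the gene trap and 34.5 and 59.1 in C129, and Gcm1, of the labyrinth, was listed at 0 in both trap libraries and at 23.4 and 7.54 in C129. The X-linked homeobox genes Rhox6 and Rhox9, whose reads may be shared with related copies, were at 12.7 and 2.44 in the gene trap and 59.1 and 95.6 in C129 and at 14 and 11 in the gene trap and 72.7 and 98.1 in C129. All 5 calls were lost without C129 replicate 1 or trap replicate 2. Of 24 fibroblast and mesenchyme genes 4 were higher (16.7%, against 4.05% of all tested genes) and 2 lower (8.33%, against 4.96%). Smooth muscle actin Acta2 was at 131 and 71.9 in the gene trap and 20.9 and 27.7 in C129, its partner Myl9 at 381 and 430 in the gene trap and 137 and 197 in C129, the receptor Pdgfrb at 199 and 108 in the gene trap and 25.9 and 65.4 in C129, and the collagen Col6a2 at 78.7 and 65.8 in the gene trap and 17.2 and 31.4 in C129. Another collagen, Col3a1, was lower, listed at 0 in both trap libraries and at 9.85 and 11.3 in C129, and Twist1 is the other. All 4 rises were lost without C129 replicate 1 or trap replicate 1. In Pali wild type Acta2 was at 200.3 and 218 and Myl9 at 719 and 756, above both lines.

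A few genes of other groups also passed. Of 39 neuroectoderm genes 2 were higher (5.13%) and 3 lower (7.69%), near the shares over all genes. Of 21 blood and endothelial genes 3 were lower (14.3%, against 4.96% of all tested genes) and 0 higher, with 2 higher at an unadjusted p under 0.05. Stmn2, a microtubule regulator of neurons, was at 269 and 269 in the gene trap and 1016 and 948 in C129, a difference of -1.85 (SE 0.24, adjusted p = 0.00023), with 851 and 891 in Pali wild type. Tek, the angiopoietin receptor of endothelium, was at 124 and 114 in the gene trap and 516 and 368 in C129 and in Pali wild type at 87.1 and 62.4. The trap was thus the low line for Stmn2 and C129 the high line for Tek, and both passed in each of the 4 fits. Prox1, a homeobox factor of liver and lymphatic endothelium, was higher at 25.4 and 46.3 in the gene trap and 6.16 and 6.29 in C129, and so was Ncan, a proteoglycan of neural tissue, at 527 and 675 in the gene trap and 289 and 342 in C129. Dnmt3l, the cofactor of the de novo DNA methyltransferases, was lower at 1145 and 1607 in the gene trap and 3320.1 and 2099 in C129, and Gadd45a, a stress gene linked to DNA demethylation, was higher at 522 and 577 in the gene trap and 236 and 294 in C129. Of 22 enzymes of serine, glycine and one-carbon metabolism 3 were higher (13.6%, against 4.05% of all tested genes) and 0 lower, with 1 lower at an unadjusted p under 0.05. Shmt2, the mitochondrial serine hydroxymethyltransferase, was at 2839 and 4245 in the gene trap and 1736 and 1910.4 in C129. Psph, the last enzyme of serine synthesis, was at 627 and 1016 in the gene trap and 397 and 509 in C129, and Phgdh, the first, was at 5604 and 7393 in the gene trap and 4227 and 4650.1 in C129. All 3, with Ncan, were lost without C129 replicate 1 or trap replicate 2, and Dnmt3l without C129 replicate 1 or trap replicate 1.

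Risen genes were crowded on 1 stretch of chromosome 6. Of 221 tested genes that start between 30 and 80 Mb of chromosome 6 (GRCm38), 69 were higher and 0 lower, 31.2% against 4.05% of all tested genes. Among the 137 with a mean of at least 50, 123 were above 0 and the median difference was 0.72. Over the rest of chromosome 6 the median was -0.01. The genome was divided into windows of 10 Mb, and of 246 windows with at least 10 such genes, 4 had a median of at least 0.5. All 4 lie in this stretch, and the next highest median was 0.33. On the low side 1 window reached -0.5, on chromosome 10 from 100 to 110 Mb, with a median of -0.59 over 13 genes, 2 of them called lower. Mkrn1, a ubiquitin ligase gene, was at 11474 and 9445 in the gene trap and 4056 and 4249 in C129, a difference of 1.33 (SE 0.12, adjusted p = 1e-05). Kdm7a, a histone demethylase, was at 1924 and 1465 in the gene trap and 599 and 873 in C129, and Tcaf2, a regulator of an ion channel, was at 199 and 178 in the gene trap and 56.6 and 60.4 in C129. Fam131b was at 129.6 and 97.1 in the gene trap and 8.61 and 8.82 in C129. Reep1, a shaper of the endoplasmic reticulum, was at 251 and 184 in the gene trap and 23.4 and 72.9 in C129, and Atp6v0e2, a proton pump subunit, was at 173 and 157 in the gene trap and 44.3 and 17.6 in C129. These last 3 are among the 15 largest rises of the whole comparison. Atp6v0e2 was lost without trap replicate 1 or C129 replicate 2, and the other 5 of these genes passed in each of the 4 fits. Tcf7l1, Nap1l5 and the stress gene Gadd45a also start there. Aebp2 and the 12 called glycolysis and hypoxia genes do not, although Hk2 starts in the next window, from 80 to 90 Mb. There 17 of 67 genes with a mean of at least 50 were higher and 3 lower, and the median was 0.17, so risen genes were also frequent beyond the limit at 80 Mb, which was set after the differences were seen.

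The difference of the stretch lay in the C129 libraries. Against Pali wild type of the same day, its median was -0.06 and 0.02 in the trap at day 4, and -0.90 and -0.62 in C129. At day 0 it was 0.07 and 0.15 in the trap and -0.82 and -0.63 in C129, and at day 8 it was -0.04 and -0.03 in the trap and -0.52 and -0.12 in C129. Every C129 library was thus below every trap library of its day. The median difference between the lines was 0.79 at day 0 and 0.35 at day 8. With these genes left out, 1323 genes were called at day 4, 558 of them higher.

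**Figure D4:**
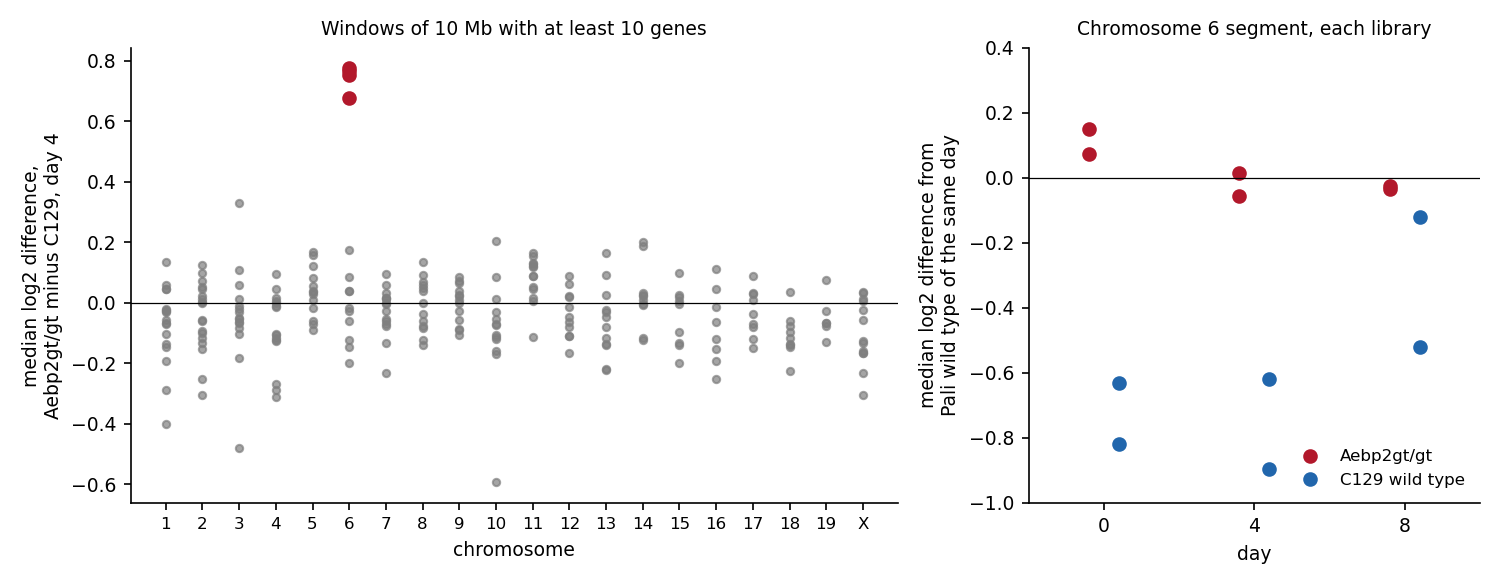
Left, median log2 difference between the Aebp2 gene trap and C129 at day 4 in windows of 10 Mb with at least 10 genes, by chromosome, where the 4 red points are windows of chromosome 6 between 30 and 80 Mb. Right, median log2 difference of that stretch from Pali wild type of the same day in each library, where the C129 libraries (blue) are below the trap libraries (red) on all 3 days.

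The day 4 comparison was set beside those of the same lines at days 0 and 8. At day 0, 821 genes were higher (5.23%) and 1223 lower (7.78%). At day 8, 1506 were higher (9.59%) and 1659 lower (10.6%), 20.1% in all. These comparisons share no library with day 4. Of the 1416 day 4 calls, 572 were called in the same direction at day 0, 40.4% of the day 4 calls and 28.0% of the day 0 calls, and 9 in the opposite direction. At day 8, 327 were called in the same direction, 23.1% of the day 4 calls and 10.3% of those of day 8, and 161 in the opposite direction (11.4%). On all 3 days 82 genes were higher and 79 lower. Mkrn1, Tcaf2, Hk2 and Syngr3, a synaptic vesicle protein at 296 and 249.7 in the gene trap and 133 and 118 in C129, were higher on each day. H19, Pdgfc, Cadps2 and the adhesion gene Nrcam, at 61 and 61.5 in the gene trap and 222 and 248 in C129, were lower on each. Nrcam was at 72.6 and 74.8 in Pali wild type.

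The difference itself changed in 162 genes between day 0 and day 4 (1.03%), upward in 119 (0.757%) and downward in 43 (0.274%). Between day 4 and day 8 it changed in 2148 genes (13.7%), upward in 1119 (7.12%) and downward in 1029 (6.55%). Without C129 replicate 1 at day 4 these counts were 64 and 1181, and without trap replicate 1 they were 89 and 1774. Naive pluripotency genes were mostly higher in the trap at day 8, including genes with no called fall at day 4. At day 8, 24 of the 32 genes were higher in the trap (75.0%, against 9.59% of all tested genes) and 1 was lower (3.12%, against 10.6%). Their median was 1.56 against -0.37 at day 4. The difference moved upward in 24 of the 32, against 7.12% of all tested genes. Tfcp2l1 went from 918 and 1155 in the gene trap and 3867 and 3203 in C129 at day 4 to 5206 and 4363 in the gene trap and 2333 and 1893 in C129 at day 8, and the difference changed by 2.95 (adjusted p = 0.00013). Klf2 went to 2128 and 2119.7 in the trap and 796 and 489.5 in C129, a change of 3.24. In both genes the C129 values were lower at day 8 than at day 4, and the trap values were higher. Of the 81 Polycomb targets, 39 were lower in the trap at day 8 (48.1%, against 10.6% of all tested genes) and 3 higher (3.70%, against 9.59%). Their median was -1.63. The difference moved downward in 14 of the 81 and upward in 2, against 6.55% and 7.12% of all tested genes. Irx3 was then at 22.3 and 29.3 in the trap and 422 and 534 in C129, and Irx5 at 8.77 and 7.37 in the trap and 349 and 439.8 in C129. The 2-cell-like genes had a median of -2.46 at day 0 and of 0.81 at day 8. At day 0, 16 of 22 were lower (72.7%, against 7.78% of all tested genes).

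**Figure D5:**
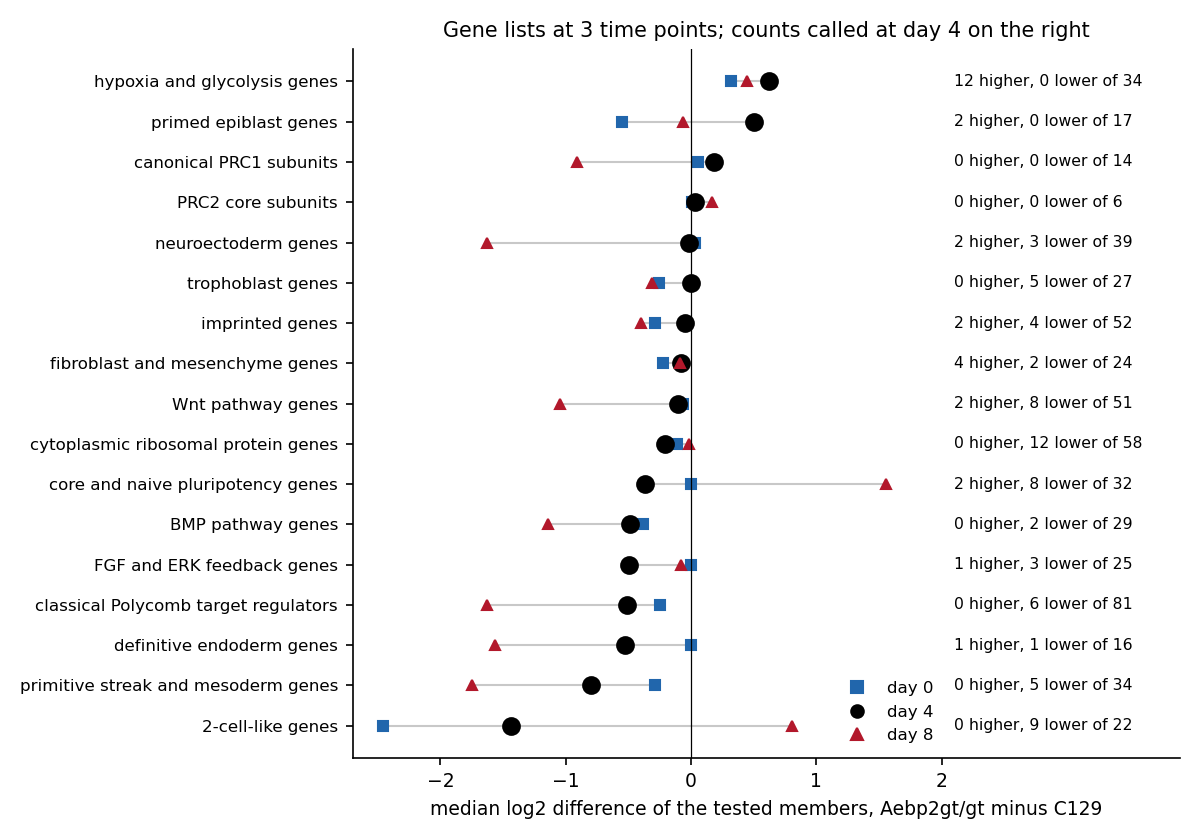
Median log2 difference between the Aebp2 gene trap and C129 (horizontal axis) of the tested members of 17 gene lists at day 0 (blue squares), day 4 (black circles) and day 8 (red triangles), with the counts called at day 4 on the right. The naive pluripotency median is -0.37 at day 4 and 1.56 at day 8, and that of the 2-cell-like genes goes from -2.46 at day 0 to 0.81 at day 8.

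At day 4 and at neither other day, 267 genes were called higher and 303 lower. Fewer stood beyond both other days by the tests of the difference itself, 17 higher and 10 lower. Prr5l was at 137 and 83.6 in the trap at day 4 and at 0 and 2.53 in C129, while at day 8 it was at 88.1 and 153 in the trap and 175 and 126 in C129, so C129 reached the trap's level later. Galnt16 did the same, from 16 and 23.9 in C129 at day 4 to 159.6 and 210.3 at day 8. Crabp2, a carrier of retinoic acid, was higher at day 4, at 405 and 622 in the gene trap and 188 and 225 in C129, and lower at day 8, at 239 and 515 in the trap against 2383 and 3749 in C129. Its day 4 call was lost without any 1 of the 4 libraries. Dpysl2, a neuronal cytoskeleton gene, likewise went from 1678 and 1162 in the gene trap and 695 and 789.7 in C129 to 1511 and 1488 in the trap and 2706 and 4008 in C129, and its day 4 call was lost without trap replicate 1 or C129 replicate 1. In Pali wild type at day 4 Crabp2 was at 470 and 546 and Dpysl2 at 1837 and 1549, so C129 was the low line for both. The metabolic genes Prps1, of nucleotide synthesis, and Pdxk, a vitamin B6 kinase, also stood beyond both other days, without such a reversal. Their differences were 0.90 and 0.83 at day 4 and changed by -0.54 and -0.46 to day 8. Prps1 was at 2834 and 3029 in the gene trap and 1442 and 1703 in C129, and Pdxk was at 922 and 837 in the gene trap and 498 and 488 in C129.

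The genes lower at day 4 beyond both other days included Id4, the neurotrophin receptor Ngfr, the keratin Krt42, the cell cycle kinase Cdk6, Lrrc34 and Klf5. Ngfr was at 27.9 and 48.7 in the gene trap and 293 and 211 in C129, a difference of -2.62 (SE 0.32, adjusted p = 0.00013), and at 853 and 667 in the trap and 906 and 951 in C129 at day 0. Krt42 was at 20.3 and 21.9 in the gene trap and 102 and 118 in C129, and Cdk6 at 1245 and 1393 in the gene trap and 2789 and 2839 in C129. At day 0 Cdk6 overlapped between the lines, at 1258 and 1202 in the trap and 1212 and 1505 in C129, and at day 4 Pali wild type was at 1605 and 1178, below C129. Lrrc34 was at 219.6 and 189 in the gene trap and 429.8 and 405 in C129 and was lost without trap replicate 2 or C129 replicate 1, and Klf5 was lost without trap replicate 1 or C129 replicate 1. Genes were also grouped by their course in Pali wild type, using a called change of 2-fold or more between days 0 and 4. Of the 674 with a fall in Pali wild type, 123 were lower (18.2%) and 33 higher (4.90%) in the trap at day 4, with a median of -0.32. Of the 1410 with a rise, 68 were higher (4.82%) and 80 lower (5.67%), with a median of 0.08. Over all tested genes 4.05% were higher and 4.96% lower, so the genes with a rise were near those shares.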

How the data were processed

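Ribosome-depleted total RNA was sequenced as stranded libraries, per the labels' protocols. The authors deposited 1 table of normalised counts, a signal per gene that need not be whole, and per the submitters' processing notes the tools included HISAT2 2.0.5, kallisto 0.43.1 and DESeq2, with build mm10 and no role given for any. Scaling of this kind keeps depth out of the values, and an exact 0 can be a failed estimate. The depth of 13198293 to 14211372 reads was estimated from the steps between low values. Whole reads were not recovered, so no count model was run.

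Genes at 10 or more in at least 2 of 30 libraries were tested, 15712 of 20563. log2(value + 4) was fitted with limma 3.58.1 in R 4.3.3, with 1 mean for each of 15 groups, 15 residual degrees of freedom, and trend and robust moderation. P-values were adjusted over all tested genes (Benjamini-Hochberg, threshold 0.05, two-sided). The fit was tested on simulated data. Coordinates are from GENCODE M21 on GRCm38, and 20124 symbols matched a gene name, 174 a single synonym and 265 neither.

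The members and the 35 gene lists were chosen with earlier results of these data known, and the lists are described by counts and medians without a test. Genes were named by rule: fixed markers and PRC2 genes, the 15 largest changes per direction with a mean of at least 50 and duplicates within 4-fold, up to 3 called members per list and direction, and up to 8 per direction for patterns over days. Further list members are given as values, and some genes that the rule names are not reported here. The windows of 10 Mb were chosen after the differences were seen. Alternatives covered the pseudocount, filter, scaling, libraries fitted, moderation, replicate block and each library left out.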

Additional observations from a re-analysis of the deposited data

Results flagged for a closer look

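The difference between trap and C129 itself differed between days, by limma's interaction test at an adjusted p under 0.05, in 162 genes for day 4 against day 0 and in 2148 for day 8 against day 4. The values that follow are the later difference minus the earlier one on the log2 scale, for genes examined singly here.

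From day 0 to day 4 the difference moved upward for Stat3 0.83, Etv5 0.66, Prr5l 4.73, Galnt16 3.36, Crabp2 2.52, Prps1 0.83, Pdxk 0.70 and Dpysl2 1.47. It moved downward for Klf5 -1.22, Fzd10 -2.26, Id4 -2.30, Ngfr -2.33, Krt42 -2.89, Cdk6 -0.96 and Lrrc34 -1.64. Prr5l and Galnt16 had the largest upward and Krt42, Ngfr and Id4 the largest downward changes among these genes.

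From day 4 to day 8 the difference moved upward for these genes of pluripotency, including factors that did not pass at day 4: Klf2 3.24, Tfcp2l1 2.95, Tcl1 3.17, Prdm14 2.81, Nr5a2 2.83, Klf5 1.98, Dppa5a 2.25, Pou5f1 1.69, Nanog 1.61, Sox2 1.05, Zfp42 3.18 and Esrrb 2.32. Genes of PRC2 also moved upward, namely Jarid2 1.03, Mtf2 1.02 and Suz12 0.76. The 2-cell-like genes moved upward as well, among close copies, namely Zscan4a 4.25, Zscan4b 4.05, Zscan4c 3.07, Zscan4f 3.42, Gm8300 4.15 and Pramef25 4.18. Other genes with an upward change were Sfmbt2 3.65, Nodal 2.15, Id4 2.87, Etv5 1.00, Ngfr 3.06, Tfap2c 2.92, Mkrn1 1.26, Pdgfc 1.30, Ap3b2 3.47, Glis3 2.69, Plce1 2.23, Krt42 4.73, Cdk6 1.05, Lrrc34 2.40, Stmn2 1.69, Tek 2.05 and Dnmt3l 2.68. A downward change was found for Eno2 -2.28, Vegfa -1.98, Car9 -2.42, Nap1l5 -2.33, Irx3 -2.02, Irx5 -3.31, Col6a2 -1.59, Fam131b -3.71, Reep1 -3.04, Atp6v0e2 -2.27, Kdm7a -1.07, Prr5l -4.78, Galnt16 -3.86, Adarb1 -2.63, Crabp2 -4.34, Prps1 -0.54, Pdxk -0.46, Dpysl2 -2.04, Ncan -2.14, Prox1 -3.52, Shmt2 -1.24, Psph -1.10 and Phgdh -0.84.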

How the results depend on the processing

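The 5 counts of called genes stayed within 1.5 times of their value under another filter, TMM or upper-quartile rescaling, a pseudocount of 1, no trend or robust moderation, and removal of genes with discordant duplicates or of the chromosome 6 stretch. A pseudocount of 16 gave 284 genes that differ between day 4 and day 0. With the 12 libraries of the trap and C129 lines, 395 genes were called at day 4, 979 at day 0, 22 for day 4 against day 0 and 1108 for day 8 against day 4. With the libraries of each contrast only, limma called 0, 1 and 0 genes at day 4, 0 and 8, and 6 and 391 for the day 4 against day 0 and day 8 against day 4 differences, on at most 4 residual degrees of freedom, and 2535 genes had an unadjusted p under 0.05 at day 4. Leaving out each day 4 library gave 402 to 1174 calls at day 4, 64 to 201 for day 4 against day 0 and 1181 to 2110 for day 8 against day 4, and the lone library left is then assumed to vary like the other groups. In the 4 day 4 libraries the deviations of same-numbered libraries were almost uncorrelated (r = 0.0336). Pairing by replicate number on other days and in other lines was not tested. With a replicate block, 1862 genes were called at day 4 and 286 for day 4 against day 0, and 1331 of the 1416 day 4 calls were shared. Of 109 named genes called at day 4, 43 were called without each library in turn and none reversed. Suz12, not called, went to -0.17 without trap replicate 1 and 0.30 without trap replicate 2. Values near 10 rest on few reads.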
